A study of Homo sapiens with 6 samples.

Results

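The human glioblastoma line U87-MG was examined by RNA sequencing for 10 genes whose products break down extracellular and luminal nucleotides: ENTPD1 to ENTPD8, NT5E and ACP3. The genes were found by symbol among the 61806 genes of the deposited table and were selected on a comparison of the same 6 libraries, in which ENTPD7 and ACP3 were higher. Differences of the 10 genes between the groups are therefore given as a description, and where calls of the fit over all genes are counted among them, nothing is read from the counts. The groups were 3 libraries titled NC, with the genotype given as wildtype, and 3 libraries titled GRIK1 siRNA, with the genotype given as GRIK1 knockdown. GRIK1 encodes a kainate-type glutamate receptor subunit. All libraries came from total RNA of U87-MG and the labels give no dose, no time after transfection and no separate cultures, so p-values measure the spread between these libraries, which may be technical. The study's design text names shRNA where the titles name siRNA, and the labels do not say whether the numbers 1 to 3 are replicates or siRNA sequences.

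Cells release ATP, and enzymes on the outer membrane shorten it to adenosine. NTPDases of the ENTPD family remove the outer phosphates of nucleoside triphosphates and diphosphates. ENTPD1 (CD39), ENTPD2, ENTPD3 and ENTPD8 face the outside of the cell, whereas ENTPD4, ENTPD5, ENTPD6 and ENTPD7 work mainly in the endoplasmic reticulum, the Golgi or vesicles, where several of them clear the nucleotide diphosphates left by protein glycosylation. NT5E (CD73) is anchored at the surface and turns AMP into adenosine. ACP3, prostatic acid phosphatase, also exists as a membrane form that can release adenosine from AMP. In glioma, CD73 and CD39 are studied for the adenosine they supply to immune and tumour cells.

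The total count per library lay between 11099909 and 14006968. NC library 3 stood apart: counts of NC libraries 1 and 2 differed with a mean chi-square of 2.286 per gene, against 92.48 and 82.46 for NC library 3 against each of them. NC libraries 1 and 2 against the libraries labelled GRIK1 siRNA gave 20.81 to 28.01. NC library 3 thus differed more from its own group than the other NC libraries did from the other group. Results that rest on NC library 3 are given with and without it. GRIK1 itself had 18, 9 and 8 counts in NC against 15, 20 and 20 in the other libraries, a difference of 0.12 on the log2(FPKM + 1) scale (two-sided exact permutation test, p = 0.4, the smallest possible p being 0.1). It was not lower in the libraries labelled GRIK1 siRNA, and these are called by their label throughout. Of the 5 mesenchymal glioma line markers, VIM, CD44, TNC and CHI3L1 were detected in every library above 1 FPKM and NES stayed below it, with sums of 902 to 1300 FPKM in NC and 1220 to 1260 FPKM in the other group. The astrocyte list summed to 0.09 to 0.1 and 0.25 to 0.3 FPKM, with AQP4 and ALDH1L1 at 0 throughout. The macrophage and lymphocyte list summed to 1.22 to 1.47 and 1.25 to 1.75 FPKM, with AIF1, C1QA, C1QB, TYROBP and CD3E at 0 and CSF1R, the receptor of a macrophage growth factor, making up most of it at 0.87 to 1.25 FPKM in NC and 0.96 to 1.28 FPKM in the other group. Neuron, oligodendrocyte and endothelial lists summed to 1.88 to 2.81, 0.55 to 1.12 and 0.02 to 0.06 FPKM in NC and to 2.47 to 2.62, 0.67 to 1.3 and 0.05 to 0.09 FPKM in the other group.

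NT5E was by far the most abundant of the 10 transcripts. FPKM, the count scaled to exonic length and to the total count of the library, allows levels of different genes to be compared roughly. Such a comparison depends on the exonic length used, which was 14344 bases for ENTPD1 and 4533 for NT5E. Whether the transcripts in these cells have those lengths was not tested. In NC, NT5E stood at 227 ± 24.7 FPKM (SD, n = 3), above 99.2% of the genes tested. It was followed by the Golgi and lysosomal ENTPD4 at 20.2 ± 5.99, ENTPD6 at 5.01 ± 0.3, ENTPD7 at 4.21 ± 0.122, ENTPD5 at 3.32 ± 0.301, ACP3 at 2.15 ± 0.105, ENTPD1 at 0.743 ± 0.0723 and ENTPD3 at 0.173 ± 0.0513 FPKM. The ranges of neighbours in this order did not overlap, down to ENTPD2 and ENTPD8, which had 0 counts in all 3 NC libraries. In the libraries labelled GRIK1 siRNA the order became NT5E, ENTPD4, ENTPD7, ACP3, ENTPD6, ENTPD5, ENTPD1 and ENTPD3, and only the ranges of ACP3 and ENTPD6, and of the barely detected ENTPD8 and ENTPD2, overlapped. ENTPD7 thus stood above ENTPD6, and ACP3 above ENTPD5 and level with ENTPD6. The surface NTPDases that start the breakdown of ATP were low in every library: ENTPD1, ENTPD2, ENTPD3 and ENTPD8 summed to 0.91, 0.89 and 0.95 FPKM in NC and to 1.13, 0.98 and 1.22 FPKM in the other group.

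**Figure D1:**
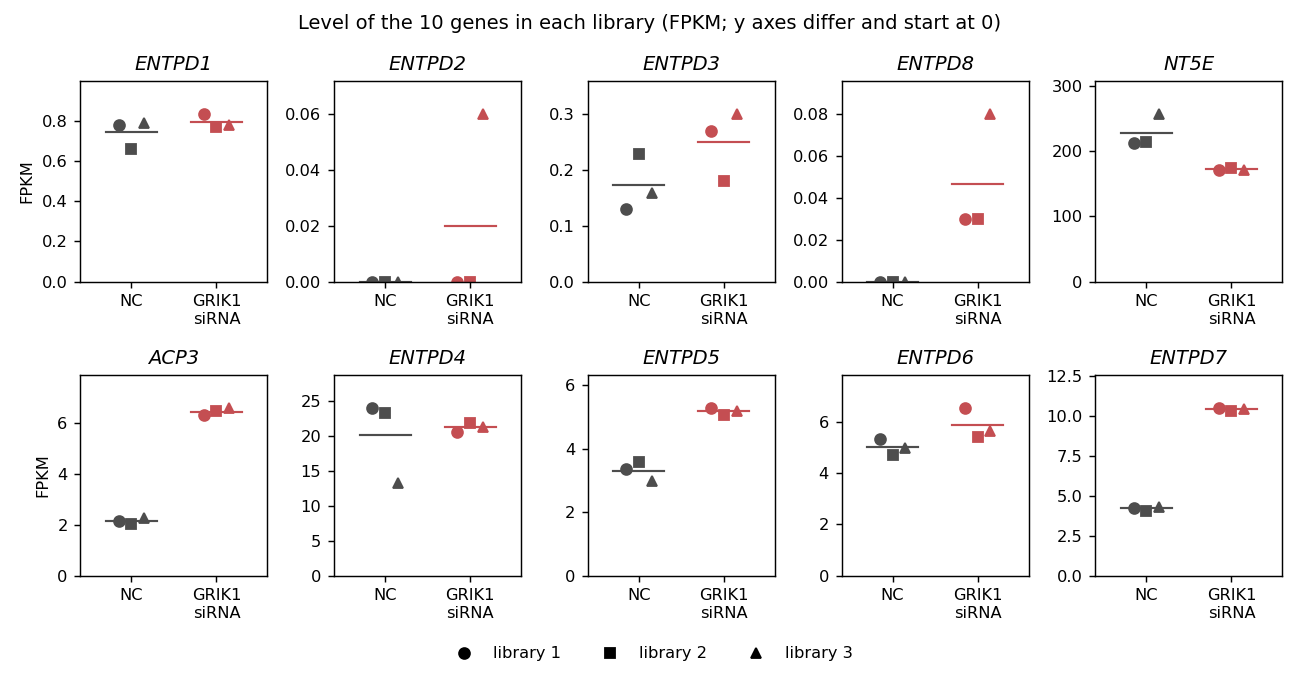
Level in FPKM (y axis, starting at 0 and differing between panels) of each of the 10 genes in each library, with NC in grey and the libraries labelled GRIK1 siRNA in red, symbols for the library number and a line at the mean of 3. ACP3, ENTPD7 and ENTPD5 lie higher in every red library, NT5E lies lower, and for ENTPD4 NC library 3 at 13.25 FPKM is far below the other libraries.

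ENTPD7 was higher in all 3 libraries labelled GRIK1 siRNA than in any NC library. In bulk RNA, a change in the number of expressing cells and a change per cell cannot be told apart. Its product is an intracellular NTPDase of vesicles that acts on nucleoside triphosphates. The gene (ENSG00000198018) lies at chr10:99659509-99711241 on the plus strand of GRCh38. It had 4.27, 4.07 and 4.29 FPKM in NC and 10.49, 10.33 and 10.46 FPKM in the other group, from 392 to 520 and 1124 to 1196 counts. The groups were far apart and libraries within a group close together. The mean normalised CPM (counts scaled to library size by the TMM method) was 37.9 ± 3.51 and 88.0 ± 0.761 (SD, n = 3), a 2.33-fold difference, and the fitted log2 fold change was 1.22 (SE 0.12), or 1.30 (SE 0.07) without NC library 3.

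ACP3 showed the larger difference. The gene (ENSG00000014257) lies at chr3:132317369-132368298 on the plus strand. It had 2.15, 2.04 and 2.25 FPKM in NC and 6.30, 6.44 and 6.56 FPKM in the libraries labelled GRIK1 siRNA, from 97 to 135 and 334 to 371 counts. No library of one group came near the other group. Normalised CPM were 9.55 ± 1.15 and 26.9 ± 0.622 (SD, n = 3), a 2.81-fold difference, with a fitted log2 fold change of 1.49 (SE 0.14), or 1.59 (SE 0.11) without NC library 3. ACP3 is best known from prostate epithelium. Of the 5 prostate and epithelial markers, KLK3 and KLK2 were at 0 in every library, TMPRSS2 and CDH1 were below 1 FPKM, and EPCAM lay at 0.91 to 1.70 FPKM in NC and 1.43 to 2.09 FPKM in the other group. The list summed to 1.00 to 1.84 and 1.53 to 2.19 FPKM.

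The stretches upstream of both genes are shown because these 2 genes moved most and their promoters are of different kinds. They are the RefSeq sequences of GRCh38.p14 that precede the first start of each gene and stop short of any annotated transcript of that gene, on the plus strand, at chr10:99659259-99659505 for ENTPD7 and chr3:132317157-132317366 for ACP3. Capitals mark matches to short motifs.
ENTPD7: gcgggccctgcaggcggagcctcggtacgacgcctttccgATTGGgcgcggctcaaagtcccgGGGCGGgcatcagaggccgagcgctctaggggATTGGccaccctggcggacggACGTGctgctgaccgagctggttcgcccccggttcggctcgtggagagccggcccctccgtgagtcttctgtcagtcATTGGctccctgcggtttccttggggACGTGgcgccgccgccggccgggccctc
ACP3: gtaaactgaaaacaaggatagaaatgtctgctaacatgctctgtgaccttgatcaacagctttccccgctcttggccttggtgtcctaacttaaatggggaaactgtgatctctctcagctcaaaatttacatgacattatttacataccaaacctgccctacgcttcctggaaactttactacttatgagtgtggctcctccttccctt
Over the 300 bases around the start (250 before and 50 after), ENTPD7 held 71.7% G and C with 34 CpG dinucleotides, and ACP3 43.7% with 2. The median of all 35116 promoters of the table was 58.7% with 14 CpG, which placed ENTPD7 above 83.4% and ACP3 above 18.1% of them in GC content. Motifs were searched on both strands. The ENTPD7 window held the CCAAT box, here as its reverse complement ATTGG, beginning 210, 155 and 57 bases before the start, the GC box GGGCGG at 187, and the hypoxia response core ACGTG at 134 and 31. The CCAAT box occurs in 34.6% of all promoters of this length, the GC box in 45.0% and ACGTG in 21.4%. The ACP3 window held none of these and none of TATAAA (11.5% of all promoters), TGACGT (7.98%), TGANTCA (7.71%) or CACGTG (7.26%), the last of which contains ACGTG. A match is a description of the letters only. RefSeq promoters were matched for 9 of the 10 genes, all but ENTPD4.

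ENTPD5 and NT5E moved less, and in opposite directions. ENTPD5, a UDPase of the endoplasmic reticulum that takes part in glycoprotein folding (ENSG00000187097, chr14:73958010-74019399, minus strand), had 3.35, 3.60 and 3.0 FPKM in NC and 5.28, 5.06 and 5.21 FPKM in the libraries labelled GRIK1 siRNA. All 3 of the latter lay above all NC libraries. Its fitted log2 fold change was 0.56 (SE 0.11), or 0.55 (SE 0.08) without NC library 3.

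NT5E (ENSG00000135318, chr6:85449584-85495791, plus strand) had 212.30, 214.10 and 255.96 FPKM in NC and 170.86, 174.01 and 171.28 FPKM in the libraries labelled GRIK1 siRNA. Every NC library was higher, NC library 3 the most. The fitted log2 fold change was −0.50 (SE 0.16) and shrank to −0.33 (SE 0.05) when that library was left out. With 9592 to 16252 counts per library it was also the most deeply counted of the 10 genes.

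The remaining intracellular members, ENTPD4 and ENTPD6, differed little between the groups. ENTPD4 (ENSG00000197217, chr8:23385783-23457695, minus strand) had 23.92, 23.29 and 13.25 FPKM in NC and 20.56, 21.80 and 21.21 FPKM in the other group. Its value in NC library 3 was the lowest of all 6, and its fitted log2 fold change of 0.00 (SE 0.19) became −0.18 (SE 0.05) without that library. ENTPD6, a Golgi NTPDase (ENSG00000197586, chr20:25195693-25228075, plus strand), had 5.32, 4.72 and 4.99 FPKM in NC and 6.53, 5.41 and 5.66 FPKM in the other group, with a log2 fold change of 0.14 (SE 0.13). All 3 values of the latter lay above NC in FPKM, but after TMM scaling the groups of ENTPD6 overlapped, as did those of ENTPD4 on both scales.

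ENTPD1, the main surface NTPDase of immune and endothelial cells, was nearly level. The gene (ENSG00000138185, chr10:95711779-95877266, plus strand) had 0.78, 0.66 and 0.79 FPKM in NC and 0.83, 0.77 and 0.78 FPKM in the libraries labelled GRIK1 siRNA, from 106 to 159 counts. The log2 fold change was −0.01 (SE 0.16), or 0.11 (SE 0.13) without NC library 3. Of the markers of those cells, PECAM1, VWF, CDH5 and CLDN5 of endothelium were at or below 0.05 FPKM in every library, and of the macrophage and lymphocyte list 5 of 9 were at 0 while CSF1R lay above ENTPD1 in every library. Their part in the level of ENTPD1 was not tested.

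The other surface NTPDases fell under the filter of a mean of 0.5 FPKM. ENTPD3 (ENSG00000168032, chr3:40387184-40428744, plus strand) had 5, 9 and 8 counts in NC and 12, 8 and 14 in the other group. The groups overlapped, and the fit without a filter gave a log2 fold change of 0.42 (SE 0.51). ENTPD2 (ENSG00000054179, chr9:137048107-137054061, minus strand) had 0 counts in 5 libraries and 2 in library 3 labelled GRIK1 siRNA. ENTPD8 (ENSG00000188833, chr9:137434364-137441816, minus strand) had 0 counts in all NC libraries and 1, 1 and 3 in the others. A count of 0 allows a level of up to 3 counts, which is 0.0811 to 0.102 FPKM for ENTPD2 and 0.0755 to 0.0953 FPKM for ENTPD8. Both genes had 3 counts or fewer in every library, so no fold is given, and a difference between the groups was not detectable at this depth. These limits cover counting error only.

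Of the 10 genes, 7 passed the filter on low values. ENTPD7 and ACP3 were called higher by the quasi-likelihood test of edgeR (Benjamini-Hochberg adjusted p below 0.05 with a log2 fold change beyond 1 in size) and 0 genes lower. Among all 15870 genes tested, 138, or 0.87%, were called higher, and 224, or 1.41%, were called in either direction. With the adjusted p alone, ENTPD5 was added as the third, against 3.09% of all genes tested. Since the choice of the genes used this contrast, nothing is read from these counts. Groups did not overlap in normalised CPM for 4 of the 7 (ENTPD5, ENTPD7 and ACP3 higher, NT5E lower), against 38.5% of all genes. The median log2 fold change of the 7 was 0.14 and that of all genes −0.02. Without NC library 3, 2 of the 7 were again called against 3.09% of all genes, and 5 had an adjusted p under 0.05 against 35.2%. Without NC library 1, NC library 2 or any 1 of the libraries labelled GRIK1 siRNA, 0 of the 7 and 0 genes of the whole table were called by edgeR, although 2238 to 4434 genes had an unadjusted p under 0.05. The log2 fold changes themselves stayed between 1.17 and 1.30 for ENTPD7 and between 1.43 and 1.59 for ACP3 when any 1 library was left out.

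**Figure D2:**
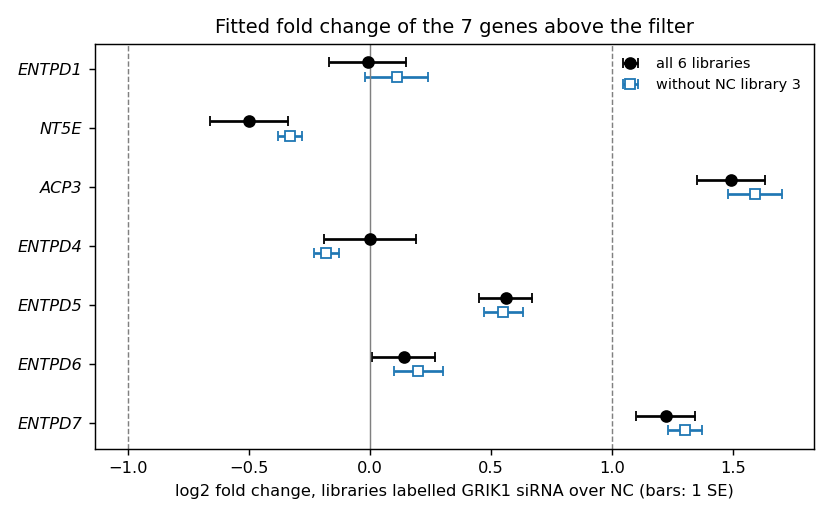
Fitted log2 fold change (x axis, libraries labelled GRIK1 siRNA over NC, bars of 1 SE) of the 7 genes above the filter, with all 6 libraries in black and without NC library 3 in blue. ACP3 and ENTPD7 lie beyond the dashed line at 1 in both fits, ENTPD5 stays near 0.56 and NT5E moves from −0.50 to −0.33.

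Set against each other, the levels of the 10 genes gave a different composition in the groups. NT5E made up 84.2%, 84.7% and 89.9% of the summed FPKM of the 10 genes in NC and 77.3%, 77.7% and 77.3% in the other group. Its ratio to ENTPD1, an enzyme that can supply its substrate AMP, was 307 ± 30 in NC and 217 ± 10.3 in the other group (SD, n = 3). ENPP1, a surface hydrolase outside the 10 genes that also makes AMP, had 2.22 ± 0.177 and 2.66 ± 0.216 FPKM. ACP3, the other AMP-hydrolysing enzyme of the group, reached 1.01%, 0.953% and 0.879% of the NT5E level in NC and 3.69%, 3.70% and 3.83% in the other group. Even where ACP3 was higher, its transcript thus remained a small fraction of NT5E. Among the intracellular NTPDases, ENTPD7 was 11.6%, 11.4% and 16.8% of the sum of ENTPD4 to ENTPD7 in NC and 24.5%, 24.2% and 24.6% in the other group. That sum itself was 36.9, 35.7 and 25.5 FPKM in NC and 42.9, 42.6 and 42.5 FPKM in the other group, the low value of NC library 3 being that of ENTPD4. These are shares of transcript levels, and enzyme amounts or activities were not measured.

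Of the other purinergic genes, 1 passed an adjusted p of 0.05 with all 6 libraries, against 3.09% of all genes tested. Of 77 genes in 8 lists by known role, 46 were tested. With all 6 libraries 0 were called by edgeR, DESeq2 or limma, and edgeR called 1.41% of all genes tested. Nothing is read from counts this small. An unadjusted p under 0.05 was found for 16 (7 higher, 9 lower), or 34.8% of the 46 against 25.1% of all genes tested. The median log2 fold change of the 46 was −0.13, or −0.06 without NC library 3. The gene past the adjusted p was GJA1, which encodes a connexin of gap junctions and of hemichannels that can release ATP. It had 79.37, 79.95 and 69.44 FPKM in NC and 117.42, 118.25 and 116.45 FPKM in the libraries labelled GRIK1 siRNA, with a log2 fold change of 0.54 (SE 0.11, adjusted p = 0.0495, between 1.08e-07 and 0.26 over the alternatives). Leaving out NC library 1, NC library 2 or any library labelled GRIK1 siRNA left 0 of the 46 past it, whereas leaving out NC library 3 left 24 (13 higher, 11 lower), in a fit in which 35.2% of all genes were past it. Several of the values below move with that library and are given both ways.

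In the list for adenosine removal, most tested genes had a fitted log2 fold change below 0, and none passed the test with all 6 libraries. The list is broader than its name. Hydrolysis by AHCY releases adenosine, and PNP acts mainly on inosine and guanosine, so the counts below do not describe adenosine removal as such. Of its 6 genes, 5 were tested, 4 below and 1 above 0. Their median log2 fold change was −0.56, or −0.22 without NC library 3. DPP4, the gene above 0, had 2.52 ± 0.184 and 3.56 ± 0.102 FPKM (0.42, edgeR adjusted p = 0.0816, and 0.43 with an adjusted p of 2.92e-04 without NC library 3). ADA, adenosine deaminase, had 1.28 ± 0.1 and 1.05 ± 0.08 FPKM (−0.37, edgeR adjusted p = 0.17, and −0.31 with an adjusted p of 0.0588 without NC library 3). AHCY, which hydrolyses S-adenosylhomocysteine, had 42.01, 41.77 and 54.32 FPKM in NC and 33.22, 29.83 and 31.26 FPKM in the other group (log2 fold change −0.65, SE 0.18, edgeR adjusted p = 0.0876, and −0.44 with an adjusted p of 6.49e-06 without NC library 3). ADK, adenosine kinase, had 10.4 ± 4.22 and 7.11 ± 0.475 FPKM (SD, n = 3; −0.67, edgeR adjusted p = 0.218), and PNP, purine nucleoside phosphorylase, had 4.11 ± 1.17 and 3.01 ± 0.112 FPKM (−0.56, edgeR adjusted p = 0.203). NC library 3 carries much of the spread of ADK and PNP, whose log2 fold changes were −0.19 and −0.22 without it.

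ADORA2B, the low-affinity adenosine receptor, was the only one of the 4 adenosine receptors above the filter. It had 12.52, 14.80 and 16.67 FPKM in NC and 11.91, 11.12 and 11.53 FPKM in the libraries labelled GRIK1 siRNA (log2 fold change −0.45, SE 0.17, edgeR adjusted p = 0.161, and −0.27 with an adjusted p of 0.0378 without NC library 3). Of the 7 nucleoside transporters, 4 were tested, with a median of −0.01. SLC29A1, an equilibrative transporter of the plasma membrane, had 2.52 ± 0.398 and 2.64 ± 0.165 FPKM, and SLC29A3, its lysosomal relative, had 1.10 ± 0.363 and 1.5 ± 0.0681 FPKM (SD, n = 3). SLC29A2 had 1.62, 1.55 and 0.31 FPKM in NC and 0.65, 0.29 and 0.36 FPKM in the other group. Its log2 fold change was −1.45 (SE 0.59, edgeR adjusted p = 0.182), and without NC library 3, which resembled the other group, −1.89 (edgeR adjusted p = 1.73e-04), so that it was then called lower.

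Among the 15 receptors for ATP and other nucleotides, 5 were tested, with a median of 0.16 that turned to −0.11 without NC library 3. P2RX4, an ATP-gated channel, had 6.34 ± 0.343 and 5.47 ± 0.407 FPKM and P2RY1, an ADP receptor, 3.46 ± 0.18 and 4.13 ± 0.269 FPKM (SD, n = 3). Their log2 fold changes were −0.30 and 0.16 (edgeR adjusted p = 0.161 and 0.487), and −0.29 and 0.27 without NC library 3 (edgeR adjusted p = 0.00833 and 0.0491). P2RX6 had 7.26, 7.95 and 2.90 FPKM in NC and 3.69, 3.98 and 3.74 FPKM in the other group (log2 fold change −0.72, edgeR adjusted p = 0.194), and was called lower without NC library 3 (−1.03, edgeR adjusted p = 7.17e-07). P2RX7, named after its values were seen, is an ATP-gated channel that opens at high ATP. It had 2.10, 1.6 and 1.04 FPKM in NC and 2.84, 3.0 and 3.18 FPKM in the libraries labelled GRIK1 siRNA, all above NC, with a log2 fold change of 0.86 (edgeR adjusted p = 0.0744), or 0.68 without NC library 3 (edgeR adjusted p = 7.33e-04).

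In the 3 lists of other enzymes and partners no gene passed an adjusted p of 0.05 in edgeR with all libraries, and 0 of 8 surface and lysosomal hydrolases, 2 of 6 intracellular nucleotidases and AMP deaminases and 5 of 11 nucleotide sugar partners of the endoplasmic reticulum and Golgi had an unadjusted p under 0.05, against 25.1% of all genes. Their medians were −0.08, 0.23 and −0.16, and 0.25, 0.19 and −0.03 without NC library 3, so that of the hydrolases changed sign. The hydrolases ACP1 (a cytosolic phosphatase of this list), CANT1 and ACP2 stood at 32.9 ± 8.76, 14.6 ± 1.71 and 6.41 ± 2.65 FPKM in NC and at 34.4 ± 0.982, 12.4 ± 0.491 and 4.73 ± 0.0751 FPKM in the other group (SD, n = 3). The log2 fold changes of ACP1 and ACP2 were −0.04 and −0.50 (edgeR adjusted p = 0.917 and 0.285), and 0.28 and −0.77 without NC library 3 (edgeR adjusted p = 4.85e-04 and 1.93e-05). NT5C3B, a cytosolic nucleotidase, had 17.7 ± 4.37 and 13.7 ± 0.77 FPKM. Its log2 fold change was −0.47, or −0.17 without NC library 3 (edgeR adjusted p = 0.225 and 0.114). The AMP deaminases AMPD2 and AMPD3 had log2 fold changes of 0.42 and 0.46 (edgeR adjusted p = 0.29 and 0.183), or 0.19 and 0.27 without NC library 3 (edgeR adjusted p = 0.0275 and 0.00243). CMPK1, the UMP/CMP kinase that takes up the UMP made by ENTPD5, had 66.6 ± 15.6 and 64.0 ± 1.54 FPKM, with a log2 fold change of −0.16 that turned to 0.13 without NC library 3 (edgeR adjusted p = 0.652 and 0.0408). UGGT1, the glucosyltransferase whose product UDP ENTPD5 clears, had 12.6 ± 3.36 and 17.9 ± 0.17 FPKM (SD, n = 3), with a log2 fold change of 0.44 (edgeR adjusted p = 0.167), and SLC35B1, an ATP importer of the endoplasmic reticulum, one of 0.16. Without NC library 3, 7 of the 11 partners had an edgeR adjusted p under 0.05, against 35.2% of all genes. UGGT1 was then at 0.27 (edgeR adjusted p = 1.74e-04) and SLC35B1 at 0.33 (edgeR adjusted p = 1.63e-04).

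**Figure D3:**
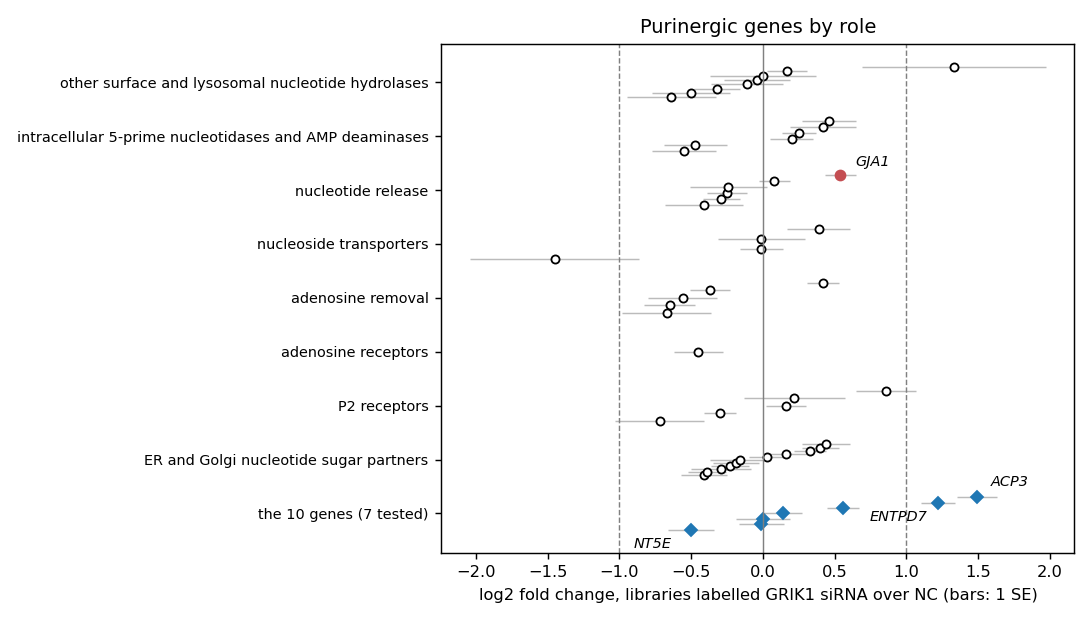
Fitted log2 fold change (x axis, libraries labelled GRIK1 siRNA over NC, bars of 1 SE) of the 46 tested purinergic genes by role (y axis) and, in blue at the bottom, of the 7 tested members of the 10 genes, with dashed lines at −1 and 1. GJA1, filled red, is the 1 listed gene past an adjusted p of 0.05. ACP3 lies to the right of all listed genes, and ENTPD7 of all but the hydrolase ACP4 (1.33, SE 0.64, edgeR adjusted p = 0.24).

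The position of the genes was not used to choose them. Of 36 genes that overlap 1 of the 10 or are the nearest tested gene on either side, 27 were tested. Among these, 1 was called by edgeR, against 1.41% of all genes tested, and nothing is read from so small a count. That gene, ENSG00000277938, has no symbol in the table and begins 1.07 kb after ENTPD6 on the same strand, at chr20:25229150-25231933. It had 0.32 ± 0.0361 FPKM in NC and 1.74 ± 0.333 FPKM in the libraries labelled GRIK1 siRNA (SD, n = 3), a log2 fold change of 2.35 (SE 0.27, edgeR adjusted p = 0.0205), whereas that of ENTPD6 was 0.14. It was not called without NC library 1, NC library 2 or any library labelled GRIK1 siRNA, although its log2 fold change stayed between 2.26 and 2.51. Without NC library 3 it was called with ENTPD3-AS1, in a fit that called 3.09% of all genes. In the same fit, 13 of the 27 (6 higher, 7 lower) had an adjusted p under 0.05 in edgeR, against 35.2% of all genes.

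ENTPD7 shares part of its span with neighbouring genes, so some of its reads may not be told from theirs. Overlaps here are between whole gene spans, introns included, and shared exons were not measured. CUTC overlaps the last 8684 bases of ENTPD7 on the same strand and COX15 overlaps 374 bases on the other. The strand setting of the counting is not given in the sources used here. CUTC had a log2 fold change of 0.24 (SE 0.16, edgeR adjusted p = 0.365) and COX15 one of 0.43 (SE 0.12, edgeR adjusted p = 0.0891), both smaller than the 1.22 of ENTPD7. Without NC library 3 they were 0.41 and 0.39 (edgeR adjusted p = 0.00404 and 6.80e-04), against 1.30 for ENTPD7. The pseudogene EBAG9P1 within ENTPD7 had −0.18 (SE 0.54). ENSG00000285932, which spans ENTPD7 on the other strand, was at 0.0133 and 0.04 FPKM. The nearest tested genes beyond them, SLC25A28 and ABCC2, had log2 fold changes of 0.07 and −0.20, or −0.19 and −0.44 without NC library 3 (edgeR adjusted p = 0.0431 and 4.61e-06).

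ACP3 and NT5E are overlapped by no other gene of the table. DNAJC13, which encodes an endosomal J-domain protein and lies 49.2 kb after ACP3 on the same strand, had 17.0 ± 0.846 and 24.9 ± 0.22 FPKM (SD, n = 3) and a log2 fold change of 0.46 (SE 0.11, edgeR adjusted p = 0.0625, and 3.18e-07 without NC library 3). On the other side, the ribosomal protein pseudogene RPL7P16 had 0.313 ± 0.239 and 0.747 ± 0.304 FPKM. Beside NT5E, LINC02535 and ENSG00000280232 had log2 fold changes of −0.31 (SE 0.35) and −0.45 (SE 0.49), the first of which was 0.19 without NC library 3.

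ENTPD3 is covered over its whole length by ENTPD3-AS1 on the other strand. This antisense gene had 1.01 ± 0.271 and 1.76 ± 0.166 FPKM (SD, n = 3), several times the level of ENTPD3 in both groups, and a log2 fold change of 0.68 (SE 0.25, edgeR adjusted p = 0.154), or 1.01 without NC library 3 (edgeR adjusted p = 1.02e-04). Without a known strand setting, and with shared exons not measured, reads of the pair may not be told apart. ENTPD4 shares 39546 bases with LOXL2 on the same strand, a gene at 248 ± 131 FPKM in NC and 320 ± 14.1 FPKM in the other group (SD, n = 3). The counts of ENTPD4 may therefore also be less certain. ENTPD5 is overlapped on the other strand by BBOF1 and COQ6, both with a log2 fold change of −0.04, or 0.19 and −0.09 without NC library 3. ENTPD1-AS1 over ENTPD1 was at 0.0633 and 0.0667 FPKM and NOXA1 at the end of ENTPD8 at 0.353 and 0.4 FPKM. The other overlapping genes, at ENTPD1, ENTPD2, ENTPD5 and ENTPD6, had 0 counts or, for a Y_RNA gene, counts in 1 library only. Further nearest genes on either side (TCTN3, CCNJ, NPDC1, SAPCD2, EIF1B, RPL14, ENSG00000253837, SLC25A37, FAM161B, ALDH6A1, APMAP, EXD3 and NSMF) lay between −0.64 for EIF1B and 0.47 for ENSG00000253837, with no adjusted p under 0.05 in edgeR with all libraries. Among the 10 genes, ENTPD1 and ENTPD7 lie 3.78 Mb apart on chromosome 10, ENTPD2 and ENTPD8 0.38 Mb apart on chromosome 9, and ENTPD3 and ACP3 91.9 Mb apart on chromosome 3.

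**Figure D4:**
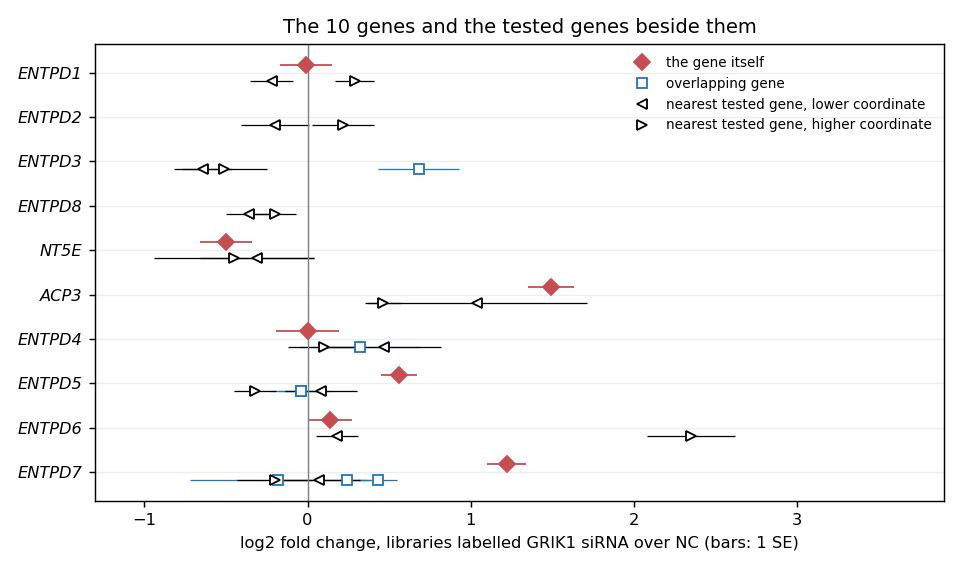
Fitted log2 fold change (x axis, libraries labelled GRIK1 siRNA over NC, bars of 1 SE) of each tested member (red diamonds), of the tested genes that overlap it (blue squares) and of the nearest tested gene on either side (triangles), 1 row per member. At ENTPD7 the neighbours lie between −0.20 and 0.43 and the gene itself at 1.22, and at ENTPD6 the gene on the right is at 2.35 while ENTPD6 is at 0.14.

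The genes whose pattern was most like ENTPD7 and ACP3 were found by Pearson's correlation of log2 CPM over the 6 libraries among all other genes tested. ACP3 and ENTPD7 were each other's closest, with r = 0.9996. Next came AFF4, a scaffold of the super elongation complex, with 0.999 to ENTPD7 and 0.9991 to ACP3. The third was GCC2, a golgin, for ENTPD7 and DNAJC13, the neighbour of ACP3 described above, for ACP3, both with 0.998. With 6 libraries in 2 groups such values mainly follow the difference between the groups, and they are given as a measure of likeness with no test. AFF4, GCC2 and DNAJC13 shared the pattern but not its size, with log2 fold changes of 0.36, 0.39 and 0.46 against 1.22 and 1.49.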

How the data were processed

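Total RNA of U87-MG cells was sequenced in 3 libraries titled NC and 3 titled GRIK1 siRNA. Per the submitters' processing notes, cutadapt 1.9.1, HISAT2, HTSeq and the build GRCh38 were used. The annotation and the strand setting are not given in the sources used here. The authors deposited whole-number counts per gene and FPKM values, which equal the count divided by exonic size and total count (100% of values within 0.0051). No sample was pooled.

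The counts were tested with edgeR 4.0.16 (R 4.3.3; quasi-likelihood test, TMM scaling, 15870 genes with a mean FPKM of at least 0.5, Benjamini-Hochberg over all of them). A gene was called where the adjusted p was below 0.05 and the log2 fold change lay beyond 1 in size. Log2 CPM used a prior count of 2. DESeq2 1.42.0, limma 3.58.1 (log2(FPKM + 1)), other filters and scaling, a replicate block and leaving out each library were alternatives. On simulated data with 200 changed genes among 15870, edgeR recovered 192 with 2 false calls, DESeq2 192 with 5 and limma 156 with 9. All planted changes were larger than the one fitted for ENTPD7, and no simulated library was made to stand apart. These rates therefore check the code and do not describe the real libraries. The main design has no block.

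The 10 genes, the 8 purinergic lists and the 7 marker lists were chosen with earlier results of these data known. Named genes are the 10 members, genes overlapping or nearest to them, in each list the genes past an adjusted p of 0.05 or else up to 3 with the highest FPKM, and the 3 genes most like ENTPD7 and ACP3. P2RX7, DPP4, ADA, ENPP1 and ACP4 were named after their values were seen. Between libraries of one kind, the lowest mean chi-square was 2.286, above sampling noise, so none was treated as a duplicate.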

Additional observations from a re-analysis of the deposited data

How the results depend on the processing

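The 224 genes called became 664 with no filter on low values, 498 with DESeq2, 113 and 125 with limma on log2(FPKM + 1) and log2(FPKM + 0.1), and 471 with a fold threshold of 1.5. Leaving out 1 library gave 0 to 491, the highest without NC library 3, of which 166 were among the 224. ENTPD7 and ACP3 were called under all of these settings except those without any 1 of the other 5 libraries (0 to 2 members), also without NC library 3 and with no filter, a setting chosen after seeing the data. With the replicate block 0 genes were called, so 0 members, 0 purinergic genes and 0 neighbours, although 3324 genes had an unadjusted p under 0.05. The libraries share only a number: deviations of same-numbered libraries correlated at −0.0703, 0.0441 and −0.0425, and 2 of the 6 libraries correlated best with their own number. The block leaves fewer degrees of freedom. Purinergic genes past an adjusted p of 0.05 numbered 1, 2 with no filter, 4 with DESeq2, 0 with the replicate block and 0 to 24 without 1 library. Called purinergic genes numbered 0 to 2 and called neighbours 0 to 2 without 1 library. Both were at 2 without NC library 3, where 3.09% of all genes were called. No direction of ENTPD5, ENTPD6, ENTPD7, NT5E, ACP3, GJA1 or ENSG00000277938 turned under 14 alternatives each, whereas ENTPD1 (−0.11 to 0.11) and ENTPD4 (−0.18 to 0.12) had both signs. The log2 fold change of ACP3 was 1.24 with limma on log2(FPKM + 1), where the pseudocount understates changes of low genes. The ratio of NT5E to ENTPD1 in NC stayed at 298 to 324. The cause of the differences between settings was not tested. Depth limits ENTPD2, ENTPD3 and ENTPD8, with at most 14 counts in a library.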
